A study of Mus musculus with 47 samples.

Results

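The comparison set the normal intestinal mucosa of Apc Min mice on a hybrid background against the same tissue on C57BL/6. It used the 3 libraries labelled B6xPWD Min mucosa and the 3 labelled B6 Min mucosa, 6 of the 47 libraries of the series, chosen by their labels alone. The B6 mice are C57BL/6, and the B6xPWD mice are the first-generation cross of C57BL/6 with PWD, a wild-derived inbred strain of Mus musculus musculus. All 6 libraries carry the Min allele, which truncates the tumour suppressor Apc, and all come from intestinal tissue that is not adenoma, of mice aged 15 to 19 weeks. The same strain contrast in mice without the Min allele (3 libraries of B6xPWD and 3 of B6 wild-type mucosa, of the same age range) shares no library with it and is given beside it, as are the 3 libraries of wild-type PWD mucosa. The series otherwise covers adenomas, a strain with only chromosome 5 from PWD, its cross with B6, and organoids. The labels give no sex, direction of the cross or segment of the intestine. They do not state that replicates are separate animals. A p-value here sets a difference against the spread between libraries of a group, which may be technical. That spread was estimated over all tissue libraries of the series.

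The lining of the small intestine is a sheet of absorptive enterocytes with goblet, Paneth, enteroendocrine and tuft cells, renewed from stem cells under Wnt signals that Apc restrains. Its expression changes along its length: the transcription factor Gata4 and lactase (Lct) are expressed in duodenum and jejunum and fade in ileum, where bile acid uptake takes place, while posterior Hox genes are expressed towards the ileum and colon. Apc Min mice form more or fewer adenomas depending on their genetic background, and Pla2g2a, a secreted phospholipase of Paneth cells that is disrupted by a frameshift in C57BL/6, was among the first modifiers to be proposed (the Mom1 locus).

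Reads assigned to genes numbered 5054765 to 6578504 per library, of which the ribosomal RNA precursor Rn45s took 24.3 to 45.2%. Levels are CPM, a gene's reads scaled to a common library size after TMM normalisation, changes are log2 B6xPWD minus B6 with their SE, and a gene was called at an adjusted p under 0.05 (edgeR quasi-likelihood test, Benjamini-Hochberg over 13657 genes). Markers of small intestinal epithelium were read at high levels: the ileal bile acid binding protein Fabp6 ranged from 1747 to 5165 CPM over the 6 libraries and the brush border peptidase Dpp4 from 311 to 1039 CPM. The Y-linked genes Ddx3y, Eif2s3y, Kdm5d and Uty were read in every one of the 6 libraries (11.2 to 28.7 CPM) and Xist stood at 0 to 1.17 CPM. Apc itself (chromosome 18) was at 176, 179 and 146 CPM in B6 and 177, 156 and 145 CPM in B6xPWD, a difference of -0.07 ± 0.18, adjusted p = 0.836. Gene counts do not separate the Min allele from the normal one.

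The libraries of the B6xPWD group stood apart from one another in genes that mark position along the intestine, which were picked out after their values were seen. Gata4 was at 0, 0.137 and 0.875 CPM in B6 Min mucosa and at 0.614, 30.3 and 43.5 CPM in B6xPWD Min mucosa. Replicates 2 and 3 of B6xPWD were high, while replicate 1 was within the range of B6. Hoxb9, which is expressed towards the posterior end, gave the reverse, with 56.8, 50.5 and 35.5 CPM in B6 and 30.1, 0.178 and 0 CPM in B6xPWD. In wild-type mucosa the arrangement was opposite: Gata4 was at 1.21, 64.1 and 78.3 CPM in B6 and 35.6, 0.964 and 0.879 CPM in B6xPWD, so 2 libraries of B6 and 1 of B6xPWD were high there. The summed level of the list of proximal small intestine genes was 4227, 3989 and 4096 CPM in B6 and 4693, 8157 and 8317 CPM in B6xPWD Min mucosa. Whether position along the intestine has a part in the results was not tested beyond giving them without B6xPWD replicates 2 and 3, which leaves 1 library on that side, assumed to vary like the other groups. Of the 138 genes that were called and selected for description, 28 stayed called in that fit. The genes that stayed called there were also called under every other alternative setting that tested them. The text says of these that the call held in every fit. A setting that did not test a gene is not counted for it, here or later.

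**Figure D1:**
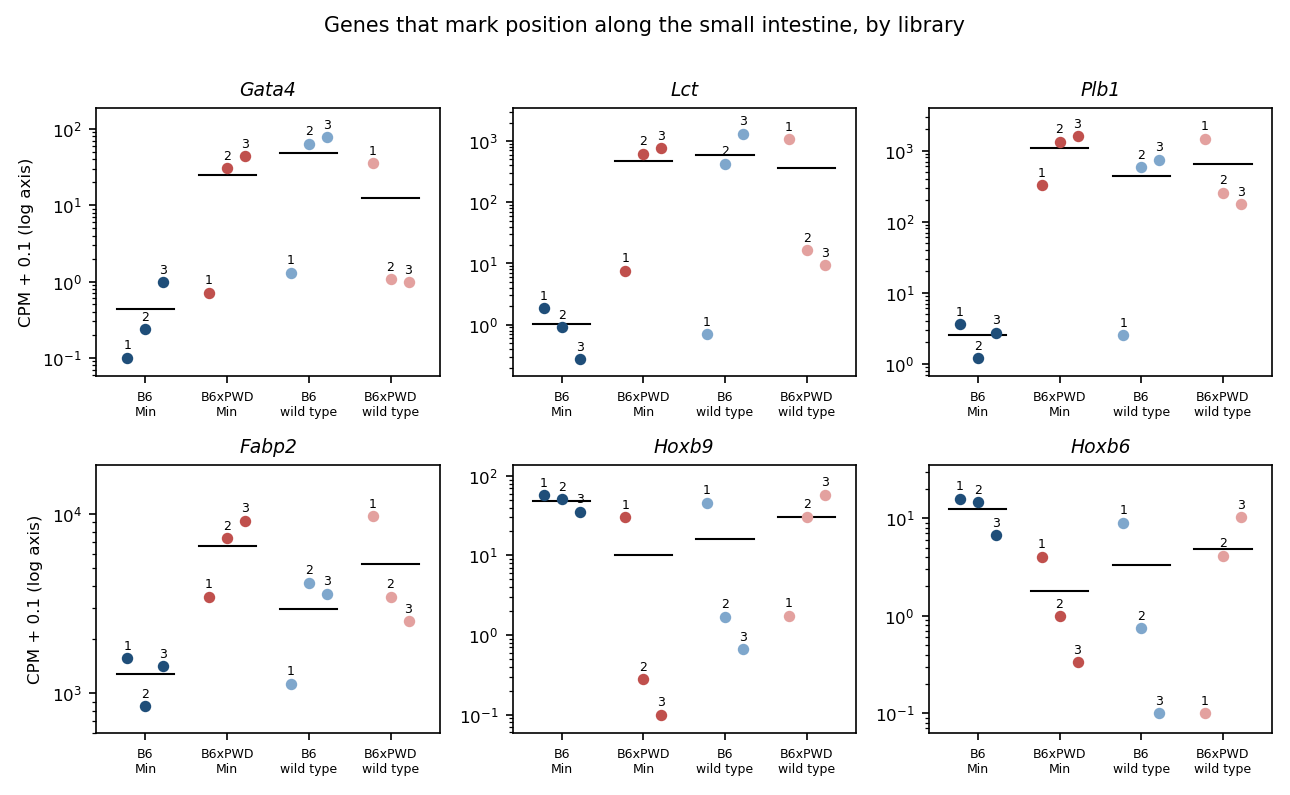
CPM plus 0.1 (log axis) of 6 genes in each library of B6 and B6xPWD, Min and wild-type mucosa, with replicate numbers beside the points and a line at each group's mean. Gata4 and Lct were high in B6xPWD Min replicates 2 and 3, B6 wild-type replicates 2 and 3 and B6xPWD wild-type replicate 1, and Hoxb9 was low in those same 5 libraries.

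Lactase was read over a wide range. Lct (chr1:128284756-128328318, mm10) was at 1.76, 0.822 and 0.175 CPM in B6 and 7.49, 618 and 770.0 CPM in B6xPWD Min mucosa, and at 0.604, 427 and 1312 and 1079.6, 16.2 and 9.23 CPM in the wild-type groups. All 3 B6xPWD Min libraries were above B6, the first by far the least, and the groups overlapped in wild-type mucosa. The change in Min mucosa (8.87 ± 2.49, adjusted p = 0.0143) was not called without B6 replicates 1, 2 or 3, each left out alone (adjusted p = 0.0503 to 0.0593), nor without B6xPWD replicates 2 and 3 (adjusted p = 0.644). Its promoter is shown because its level moved with Gata4 over these libraries. The 250 bases before the RefSeq start (minus strand, chr1:128328319-128328568, GRCm38.p6) hold the letters AGATAA, the core of GATA factor sites, once on each strand, in capitals:
Lct promoter: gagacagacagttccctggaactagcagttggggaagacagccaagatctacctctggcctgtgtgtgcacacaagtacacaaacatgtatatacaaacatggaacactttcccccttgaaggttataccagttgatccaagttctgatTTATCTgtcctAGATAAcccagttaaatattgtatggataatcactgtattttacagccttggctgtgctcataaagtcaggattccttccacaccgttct
The motif occurs on either strand in 9.99% of the 32851 promoters of this length, and a match of letters is not evidence of binding.

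Across the transcriptome, 2178 of 13657 genes differed between B6xPWD and B6 Min mucosa (15.9%), 1193 higher in B6xPWD (8.74%) and 985 lower (7.21%). Changes past 2-fold numbered 1306, of which 558 were higher and 748 lower, and the median change over all genes was -0.02. In 2066 of the called genes the 2 groups of libraries did not overlap; over all genes tested, 17.6% had all B6xPWD libraries above those of B6 and 16.6% had all below. Over the autosomes, 12.5% of the genes tested on chromosome 2 to 19.5% on chromosome 12 were called, with 13.2% on the X chromosome and none of 4 on the Y chromosome. The count fell to 1297 without B6xPWD replicate 2, to 1185 without replicate 3 and to 249 without both, of which 243 were called in the same direction with all libraries. A set of 789 genes stayed called whichever single library was left out, 506 of them higher and 283 lower in B6xPWD.

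**Figure D2:**
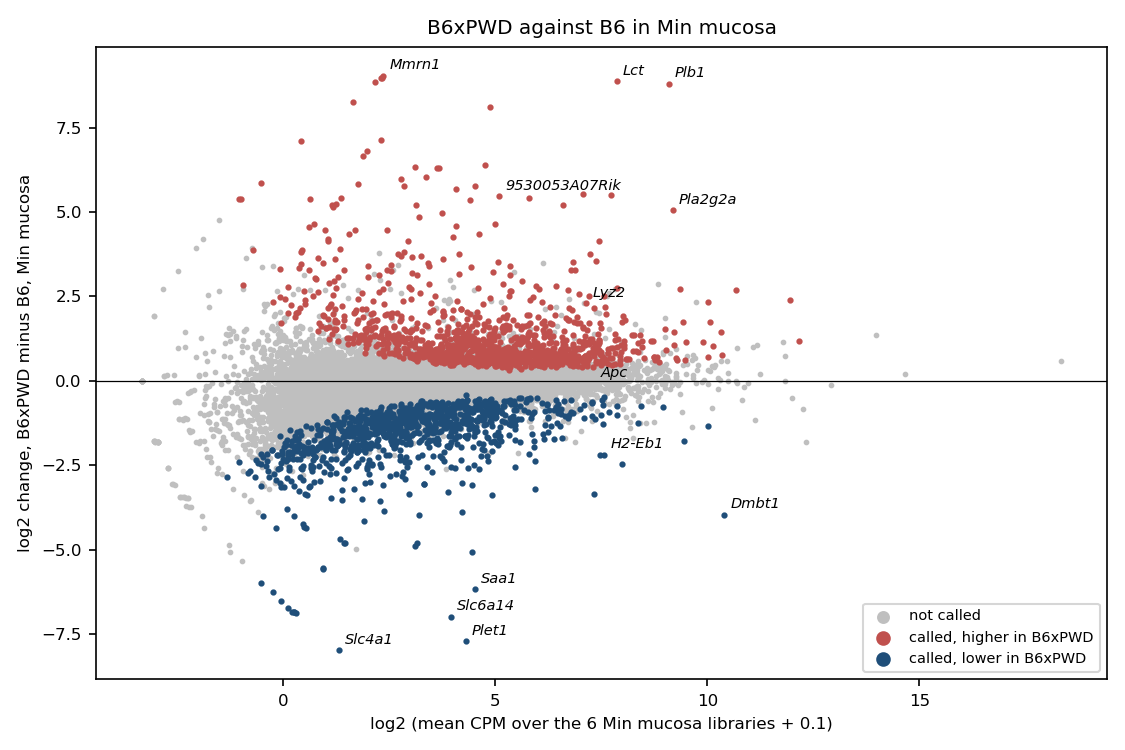
Log2 change of B6xPWD against B6 Min mucosa (vertical axis) by the mean level over the 6 libraries (horizontal axis, log2 of CPM plus 0.1) for 13657 genes, with called genes in red (higher) and blue (lower). Pla2g2a and Dmbt1 lie far from 0 at high levels, Apc lies near 0, and genes at 0 counts on one side, such as Mmrn1 and Slc4a1, have fitted changes that depend on the prior count.

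The strain contrast in wild-type mucosa, on other libraries, called 1311 genes (9.6%), 723 higher (5.29%) and 588 lower (4.31%) in B6xPWD. Genes called in both tissues numbered 669, which is 30.7% of the Min calls and 51.0% of the wild-type calls, and all 669 had the same direction (411 higher and 258 lower in B6xPWD). Of the Min calls, 91.2% had the same sign in wild-type mucosa, against 71.3% of all genes, and Pearson's r of the changes across genes was 0.63, with genes not independent of one another. When the difference of the strain contrast between the 2 tissues was tested as an interaction, edgeR called no gene. The smallest adjusted p was 0.247, 1117 genes had an unadjusted p under 0.05, and DESeq2 called 19. A gene called in Min mucosa and not in wild-type mucosa is therefore not shown to differ between them.

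**Figure D3:**
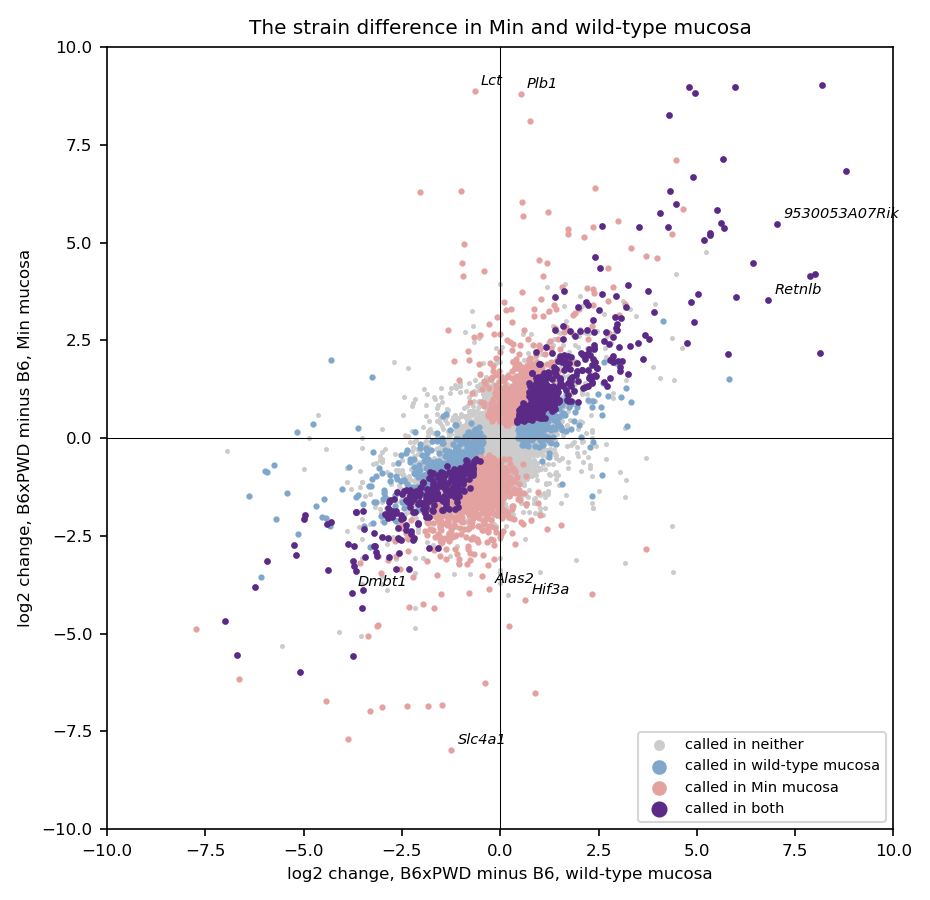
Log2 change of B6xPWD against B6 in Min mucosa (vertical axis) and in wild-type mucosa (horizontal axis) for 13657 genes, coloured by where they were called. All 669 genes called in both lie in the quadrants of equal sign, Lct and Plb1 were called higher in Min mucosa and not in wild-type mucosa, and Slc4a1, Alas2 and Hif3a are low in Min mucosa with wild-type changes that were not called.

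The genes with the firmest difference in both tissues included Pla2g2a (chromosome 4, 138831857 to 138835189). It was at 32.7, 35.5 and 33.1 CPM in B6 Min mucosa and 815, 1318 and 1252 CPM in B6xPWD Min mucosa, a change of 5.06 ± 0.39, adjusted p = 1.86e-10. Every hybrid library was far above every B6 library. The wild-type change was 5.17, and wild-type PWD mucosa held 1541, 1058 and 1927 CPM. The call held in every fit. Among 10 secreted phospholipases tested Pla2g2a was the only one called higher and 2 were called lower, against 8.74% and 7.21% of all genes. Pla2g5 on the same chromosome was lower (-1.64 ± 0.47, adjusted p = 0.0172), though not called without B6 replicate 3 or B6xPWD replicate 3, each left out alone (adjusted p = 0.0695 to 0.0912), and Pla2g10 was lower at -0.98 ± 0.34, adjusted p = 0.0477, a call lost without B6 replicates 1 or 2 or B6xPWD replicates 2 or 3, each left out alone (adjusted p = 0.0896 to 0.242), with no filter on low counts (adjusted p = 0.0671), with a replicate block (adjusted p = 0.0534) and in a fit of the 6 libraries alone (adjusted p = 0.0981).

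Pla2g2a is one of 4 tested genes listed as altered in C57BL/6. In Min mucosa 3 of them were higher in B6xPWD and none was lower, against 8.74% and 7.21% of all genes. The others called were Mx2 and Nnt. In wild-type mucosa only 1 of the 4 was called, Pla2g2a. Mx2, an antiviral GTPase, was at 0, 0.137 and 0.7 CPM in B6 and 3.07, 1.6 and 3.04 CPM in B6xPWD (3.30 ± 0.80, adjusted p = 0.00544). Nnt, the mitochondrial transhydrogenase whose gene has a deletion in C57BL/6J, was at 48.8, 56.8 and 33.6 and 78.8, 87.2 and 84.3 CPM (0.84 ± 0.19, adjusted p = 0.00284). Neither gene's groups overlapped in Min mucosa. In wild-type mucosa Mx2 rose by 2.01, with an adjusted p of 0.0794. Neither Min call held in every fit: without B6xPWD replicates 2 and 3 the changes were 3.55 for Mx2 and 0.77 for Nnt. The labels do not say which C57BL/6 substrain was used.

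Several further genes were called in both tissues, with Min calls that held in every fit. Wild-type calls of single genes were not checked under the alternative settings. The RIKEN gene 9530053A07Rik (chromosome 7, 28129466 to 28164811) rose from 1.63, 1.1 and 1.75 CPM to 55.3, 77.6 and 66.9 CPM (5.47 ± 0.38, adjusted p = 1.58e-11) and stood at 174, 75.7 and 138 CPM in PWD. Fut4, a fucosyltransferase that makes the Lewis X antigen (chromosome 9, 14748459 to 14752122), rose from 36.8, 23.96 and 23.3 to 126, 219.5 and 205 CPM (2.71 ± 0.23, adjusted p = 2.32e-09). H2-Bl, a class I-like gene of the major histocompatibility complex (chromosome 17, 36080110 to 36084249), rose from 2.01, 2.74 and 2.97 to 58.3, 139 and 130.4 CPM (5.41 ± 0.48, adjusted p = 2.84e-09) and was at 466, 630.0 and 240.4 CPM in PWD. In each of these genes the 3 hybrid libraries lay above all B6 libraries in both tissues. For Fut4 and H2-Bl they also lay below all PWD libraries. Ubash3a, a regulator of T cell receptor signalling, rose by 3.77 ± 0.45, adjusted p = 1.38e-06, and Rprl3, a ribonuclease P RNA-like gene, by 5.51 ± 0.66, adjusted p = 1.38e-06. H2-Bl, Rprl3 and 9530053A07Rik have close relatives in the genome, so reads could be divided between copies, and reads of the PWD allele were aligned to the C57BL/6 reference genome.

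**Figure D4:**
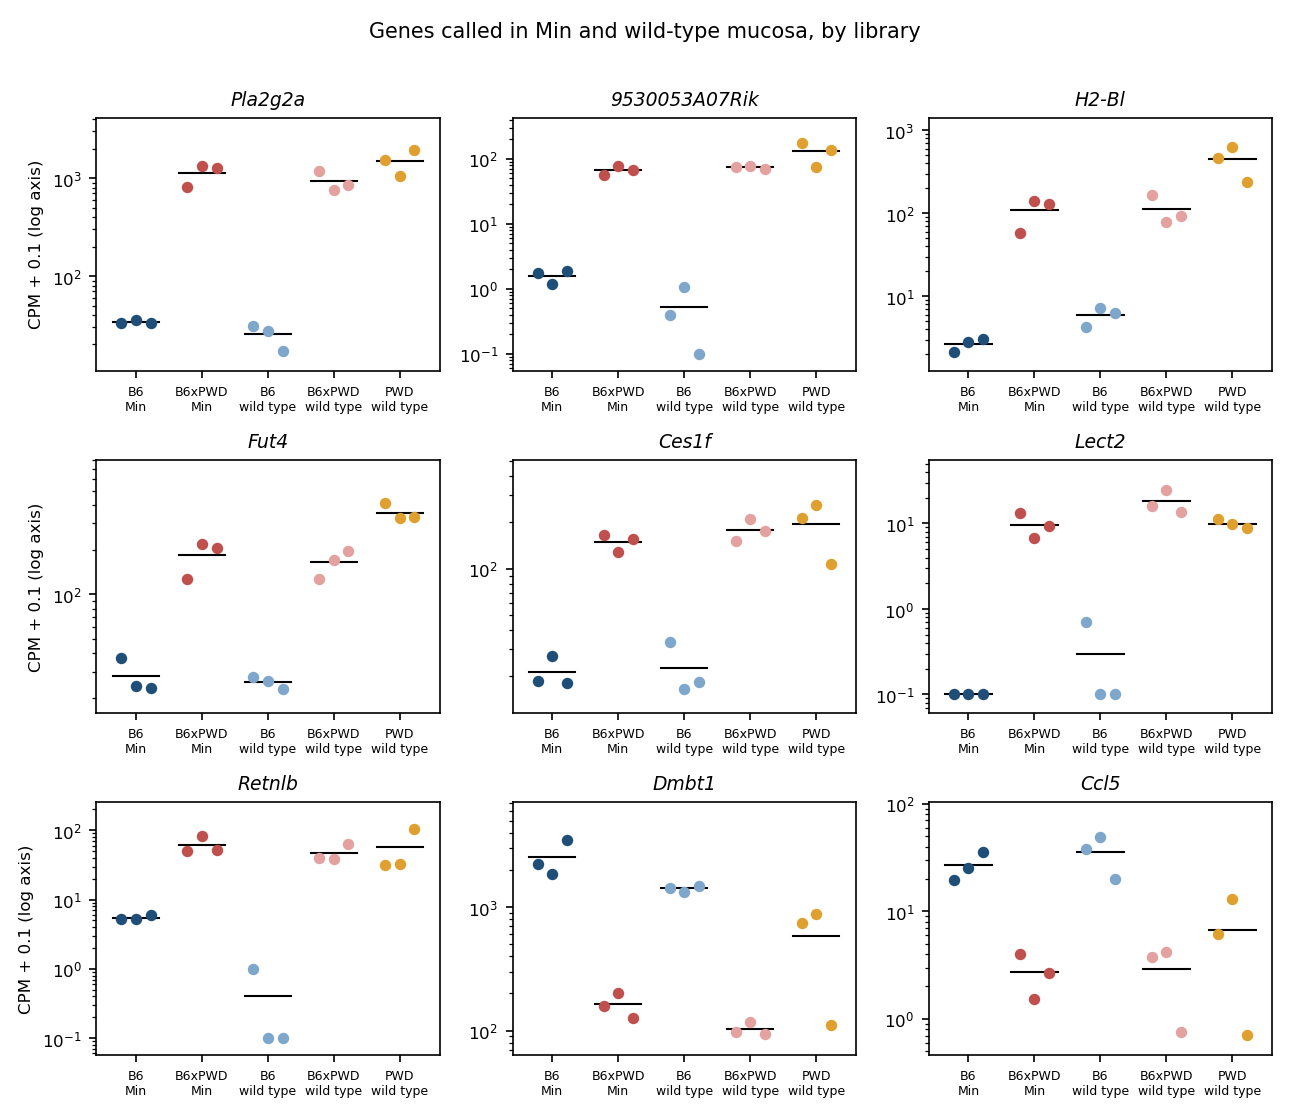
CPM plus 0.1 (log axis) of 9 genes in each library of 5 groups, with a line at the group mean. Pla2g2a, 9530053A07Rik, H2-Bl, Fut4, Ces1f, Lect2 and Retnlb are higher in all B6xPWD libraries than in all B6 libraries of the same tissue, and Dmbt1 and Ccl5 are lower.

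The largest rises included genes with no read in B6 Min mucosa. Mmrn1, multimerin of platelets and endothelium, had 0 counts in the 3 B6 libraries and 12.03, 9.81 and 8.19 CPM in B6xPWD, at least 72.9-fold higher against a floor of 3 counts over the group. Lect2, a secreted chemotactic protein, was at 13.1, 6.6 and 9.13 CPM in B6xPWD, at least 70.99-fold higher. Cml2, a camello-like acetyltransferase, was at 6.63, 8.2 and 14.5 CPM, at least 62.8-fold higher. Nr0b2, the nuclear receptor SHP that represses bile acid synthesis, was at 12.3, 5.53 and 8.43 CPM, at least 64.8-fold higher. All 4 were called in wild-type mucosa too, and their Min calls held in every fit. PWD mucosa had 40.9, 34.3 and 31.6 CPM of Mmrn1, above all hybrid libraries, but 0.254, 0.577 and 4.26 CPM of Nr0b2, below all hybrid libraries of Min mucosa.

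Cyp1a1, the cytochrome P450 induced through the aryl hydrocarbon receptor, had 0 counts in B6 Min mucosa and 5.77, 1.25 and 11 CPM in B6xPWD, at least 39.2-fold higher. The hybrid libraries varied widely but all lay above B6, and the call (0.00188) held in every fit. In wild-type mucosa the values were 0.151, 0.32 and 1.13 against 11.9, 4.44 and 6.37 CPM, and in PWD 16, 30.2 and 5.78 CPM. Its promoter is shown for the core letters that the receptor and its partner Arnt recognise, GCGTG. In RefSeq the gene spans 57687928 to 57703824, and the 250 bases shown precede a start inside that span. The letters occur once in them (plus strand, chr9:57697363-57697612, GRCm38.p6), in capitals:
Cyp1a1 promoter: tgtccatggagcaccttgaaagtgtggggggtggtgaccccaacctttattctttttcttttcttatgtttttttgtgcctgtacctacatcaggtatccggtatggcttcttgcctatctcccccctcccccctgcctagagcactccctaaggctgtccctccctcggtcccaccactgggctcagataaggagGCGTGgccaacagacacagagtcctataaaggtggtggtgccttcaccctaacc
These letters are common, on either strand in 28.2% of the 32851 promoters, and nothing follows from the match about the receptor.

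The other large rises were Cyp4f37, a cytochrome P450, Cel, the carboxyl ester lipase of pancreatic juice, and Plb1 and Fam151a. Cyp4f37 and Cel had 1 count each in B6 against 167 and 143 counts in B6xPWD, ratios of 194 (95% counting interval 34.4 to 7721) and 166 (29.4 to 6618). Both held in every fit, and intervals and floors cover counting error only. Of the other 14 pancreatic genes listed 2 were tested and neither was called, and 9 of the 15 had no count in B6xPWD. Plb1, a phospholipase of the brush border, was at 3.52, 1.1 and 2.62 CPM in B6 and 324, 1326 and 1608 CPM in B6xPWD (8.80 ± 1.87, adjusted p = 0.00179). Fam151a was at 0.377, 0.137 and 0 and 9.21, 64.4 and 101 CPM (8.10 ± 2.19, adjusted p = 0.0111). In both genes the first hybrid library was the lowest. Neither call held in every fit: without B6xPWD replicates 2 and 3 the changes were 7.06 for Plb1 and 5.47 for Fam151a. In wild-type mucosa neither gene was called (0.52 and 0.77). B6 wild-type libraries there held 2.41, 588 and 741 CPM of Plb1 and 0, 31.2 and 79.4 CPM of Fam151a.

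Among the largest falls Dmbt1, a mucosal scavenger receptor protein that binds bacteria (chromosome 7, 131032057 to 131121628), had the highest level. It was at 2236, 1857 and 3475 CPM in B6 and 158, 203 and 127 CPM in B6xPWD (-3.96 ± 0.62, adjusted p = 6.88e-05), with a wild-type change of -3.78. The groups were far apart in both tissues and the call held in every fit, while PWD libraries spread from 112 to 884 CPM. Apod, a lipocalin, fell from 9.18, 4.66 and 1.57 CPM to 3 counts in all, a ratio of 33.2 (11.1 to 163). Its Min call held in every fit too. Its wild-type change of -3.14 was not called (adjusted p = 0.0884), on 13 counts in B6 and 1 in B6xPWD. Tat, tyrosine aminotransferase, fell as well (-4.78 ± 1.20, adjusted p = 0.00689), and so did Hif3a, a relative of the hypoxia-inducible factors, which was at 5.66, 11.1 and 4.02 CPM in B6 and 0.614, 0.178 and 0.234 CPM in B6xPWD (-4.14 ± 0.67, adjusted p = 9.98e-05). Cartpt, a neuropeptide, went from 8.67, 5.48 and 1.05 CPM to 3 counts in all, a ratio of 32.9 (10.99 to 162). These 3 were called without any 1 library, but not without both B6xPWD replicates 2 and 3 (adjusted p = 0.204, 0.0535 and 0.0861).

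The calls of the remaining large falls were each lost when some single library was left out. Plet1, a surface protein of epithelial progenitors, was at 4.27, 3.83 and 109 CPM in B6, and 109 of these came from replicate 3; the B6xPWD libraries held 3 counts in all. Saa1, an acute-phase serum amyloid, was at 7.79, 22.2 and 105 CPM in B6 and 0.737, 0.713 and 0.234 CPM in B6xPWD (-6.17 ± 2.10, adjusted p = 0.0434). Ubd, a ubiquitin-like protein induced by inflammatory cytokines, was at 11.3, 7.53 and 108 and 1.11, 0.713 and 2.11 CPM (-5.05 ± 1.34, adjusted p = 0.0101). Replicate 3 of B6 was the highest library in all 3 genes, and without it their adjusted p was 0.214, 0.171 and 0.15. Plet1 was also lost without B6xPWD replicate 1, 2 or 3 (0.0511 to 0.0542), Saa1 without B6 replicate 2 or any hybrid library (0.0528 to 0.127) and with a replicate block (0.057), and Ubd without B6xPWD replicate 2 (0.051). Slc6a14, an amino acid transporter, was at 20.1, 22.5 and 48.6 and 0.246, 0.178 and 0.234 CPM, a call lost without B6xPWD replicates 1, 2 or 3, each left out alone (adjusted p = 0.0557 to 0.0654). S100g, a calcium-binding protein of enterocytes, was at 33.7, 13.3 and 4.2 and 1.35, 1.25 and 0.468 CPM, lost without B6 replicate 1 (adjusted p = 0.0753).

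Lists of absorptive functions held more rises than falls in B6xPWD, with most members not called. Each list's counts here and in the following paragraphs stand against 8.74% of all genes called higher and 7.21% called lower in Min mucosa. Of 21 enterocyte brush border genes 7 were higher and none lower, with 20 of 21 estimates above 0 and a median of 0.77 (wild type 0.33). The calls numbered 3 to 8 with any 1 library left out, fewest without B6 replicates 2 or 3, and 0 without B6xPWD replicates 2 and 3. Dpp4, a dipeptidyl peptidase, was at 311, 494 and 538 CPM in B6 and 945, 973 and 1039 CPM in B6xPWD (1.14 ± 0.28, adjusted p = 0.00518). Xpnpep2, an aminopeptidase, rose by 1.37 ± 0.32, adjusted p = 0.00373. Dpp4 and Xpnpep2 were not called in wild-type mucosa (0.31 and 0.66). Mep1a, a subunit of the protease meprin, was at 506, 600.4 and 359 and 1727, 1612 and 1615 CPM (1.76 ± 0.49, adjusted p = 0.0134), with a wild-type change of 1.77 that was called as well; its Min call was lost without B6 replicate 3 (adjusted p = 0.0606). All 3 genes had hybrid libraries above every B6 library.

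Lipid and nutrient uptake followed. Of 18 lipid absorption genes 5 were higher and none lower (median 0.76, wild type -0.29), and 3 to 7 with any 1 library left out, fewest without B6 replicate 3 or B6xPWD replicate 3, and 0 without B6xPWD replicates 2 and 3. Fabp2, the intestinal fatty acid binding protein, was at 1570.4, 846 and 1423 CPM in B6 and 3464, 7358 and 9219 CPM in B6xPWD (2.38 ± 0.58, adjusted p = 0.00518). Mogat2, which re-forms triglyceride in enterocytes, rose by 1.23 ± 0.26, adjusted p = 0.00157, and Plin2, a lipid droplet coat protein, by 0.78 ± 0.19, adjusted p = 0.00557, a call lost in a fit of the 6 libraries alone (adjusted p = 0.0549). Plin2 was also called in wild-type mucosa (0.99), and Fabp2 and Mogat2 were not. Of 16 nutrient transporters 4 were higher and 1 lower, the rises being 2 to 5 with any 1 library left out, fewest without B6 replicates 1 or 3 or B6xPWD replicates 2 or 3. Without B6xPWD replicates 2 and 3 no transporter was called, and the median went from 0.57 to 0.22. In wild-type mucosa 1 transporter was higher, none was lower and the list's median was -0.20. Slc7a8, an amino acid transporter, was at 12.3, 12.6 and 8.92 and 38.1, 104 and 72.1 CPM (2.65 ± 0.63, adjusted p = 0.00423). Its wild-type estimate was -0.16 and was not called, with B6 wild-type libraries at 9.81, 55.2 and 149 CPM. Slc6a20a, a proline transporter, rose by 1.49 ± 0.35, adjusted p = 0.00356 and likewise in wild-type mucosa (1.52). Slc30a10, a manganese exporter, was at 32.6, 36.3 and 32.4 CPM in B6 and 9.95, 9.45 and 13.3 CPM in B6xPWD (-1.64 ± 0.38, adjusted p = 0.0039). Its wild-type estimate was -0.23 and was not called.

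Genes of both ends of the small intestine were among the rises. Of 23 proximal genes 7 were higher and none lower (median 0.97, wild type -0.37), and 3 to 8 with any 1 library left out, fewest without B6 replicate 1, and 0 without B6xPWD replicates 2 and 3. Slc28a1, a nucleoside transporter, was at 1.01, 0.685 and 0 CPM in B6 and 21.1, 50.1 and 88.5 CPM in B6xPWD (6.39 ± 1.35, adjusted p = 0.00177). Its wild-type estimate was 2.40 and was not called. Of 14 distal ileum genes 3 were higher and 1 lower (median 0.72). Cubn and Amn, the cubilin and amnionless subunits of the vitamin B12 receptor, rose by 1.74 ± 0.55, adjusted p = 0.0292 and 1.31 ± 0.33, adjusted p = 0.00658. Cubn was called in wild-type mucosa too (2.07), and its Min call was lost without B6 replicates 1 or 3 or B6xPWD replicates 1 or 2, each left out alone (adjusted p = 0.0675 to 0.116). Pyy, a hormone of distal enteroendocrine cells, was at 80.7, 53.1 and 23.8 and 22.6, 14.98 and 12.6 CPM (-1.64 ± 0.44, adjusted p = 0.0112), a fall lost without B6 replicate 1 or B6xPWD replicates 2 or 3, each left out alone (adjusted p = 0.0521 to 0.0947). Of 16 Hox genes 3 were lower and none higher (median -1.71, wild type -0.13). The falls numbered 1 to 7 with any 1 library left out, fewest without B6 replicate 2 or B6xPWD replicate 3, and without B6xPWD replicates 2 and 3 they numbered 0 and the median was -0.66. Hoxb5 was at 8.55, 10.1 and 2.97 CPM in B6 and 1.47, 0.713 and 0.234 CPM in B6xPWD (-3.00 ± 0.76, adjusted p = 0.00697), with hybrid replicates 2 and 3 lowest. Of 15 genes of bile acid and sterol transport 2 were higher, Nr0b2 and Abcg8, a sterol exporter (0.71 ± 0.22, adjusted p = 0.0263), which was lost without B6 replicates 1 or 3 or B6xPWD replicates 1 or 3, each left out alone (adjusted p = 0.059 to 0.124) and in a fit of the 6 libraries alone (adjusted p = 0.0763).

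**Figure D5:**
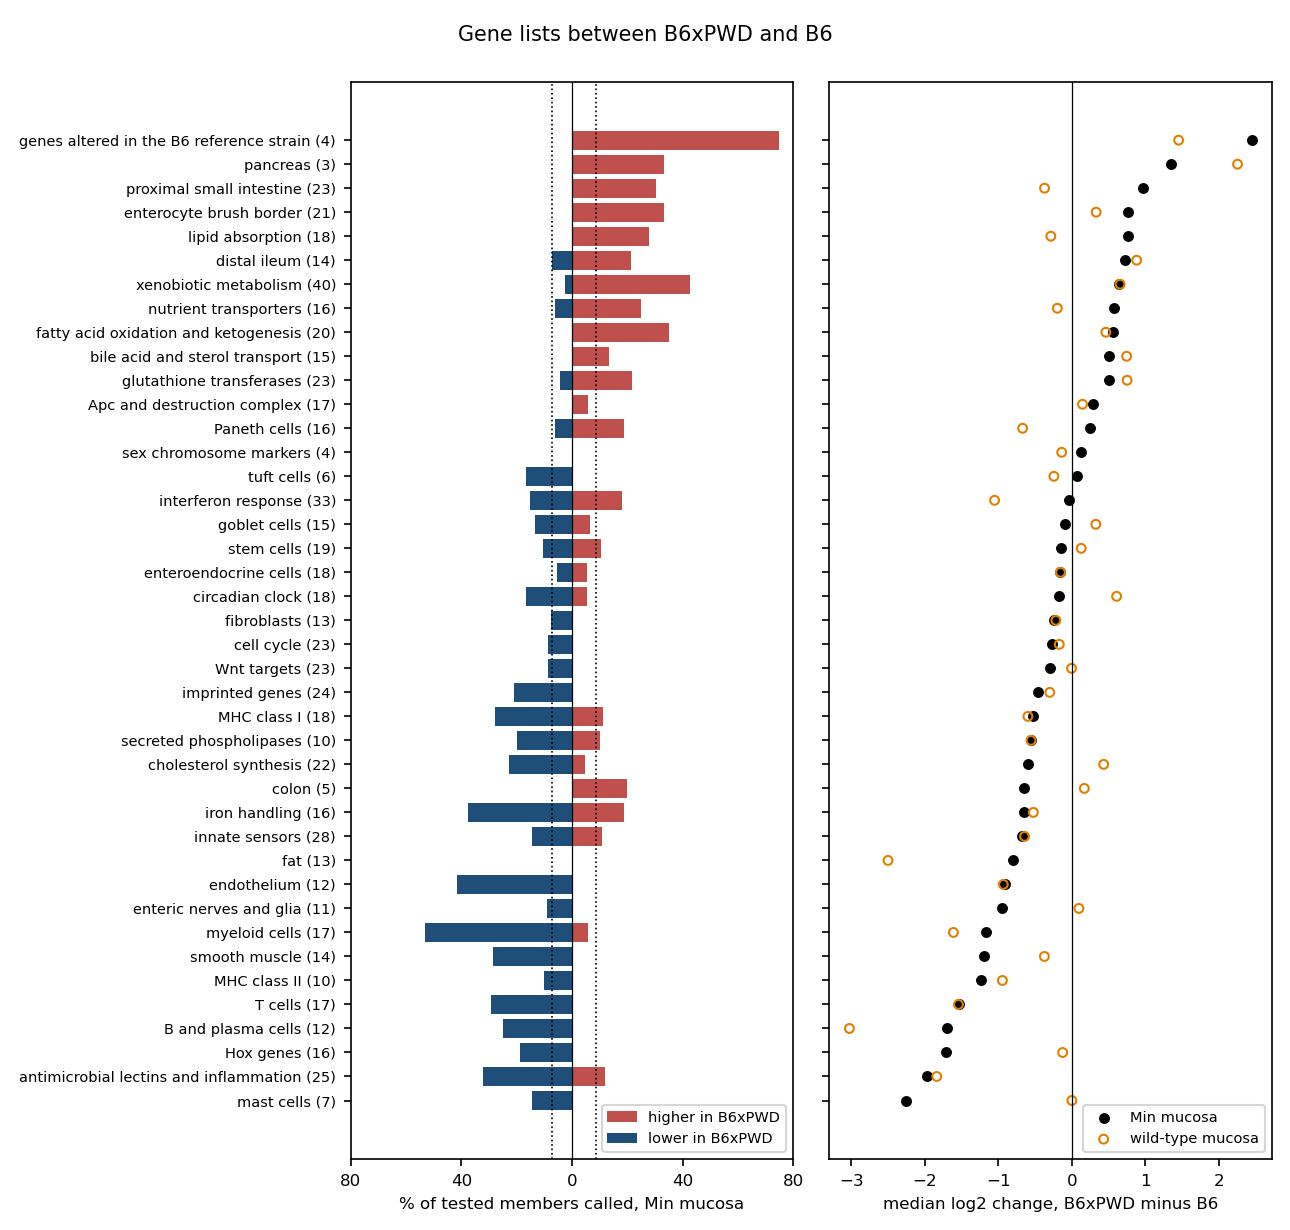
For 41 gene lists with at least 3 tested members (number in brackets), the share of members called higher (red) or lower (blue) in B6xPWD Min mucosa on the left, with dotted lines at the shares over all genes, and on the right the median log2 change in Min (filled) and wild-type mucosa (open). Absorptive, xenobiotic and fatty acid oxidation lists lie at the top, and immune, antimicrobial and Hox lists at the bottom.

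Of 40 xenobiotic metabolism genes, which modify drugs and foreign compounds, 17 were higher and 1 lower (median 0.64), and in wild-type mucosa 13 were higher and none lower (0.66). The rises numbered 11 to 16 with any 1 library left out, fewest without B6 replicate 3, and 7 without B6xPWD replicates 2 and 3. Ces1f, a carboxylesterase (chromosome 8, 93256236 to 93279766), was at 18.6, 27.1 and 18.02 CPM in B6 and 167, 128 and 156 CPM in B6xPWD (2.82 ± 0.34, adjusted p = 1.79e-06). Its neighbour Ces1c went from 2.26, 1.92 and 3.5 to 15.7, 12.5 and 12.2 CPM (2.41 ± 0.31, adjusted p = 4.26e-06). Ugt2b36, a glucuronosyltransferase, was at 1.01, 2.6 and 1.92 and 19.9, 16.05 and 22.5 CPM (3.40 ± 0.44, adjusted p = 5.35e-06), and Cyp2c68, a cytochrome P450, at 1.51, 2.05 and 2.62 and 21.98, 31.2 and 22 CPM (3.62 ± 0.49, adjusted p = 8.6e-06). In these 4 genes no hybrid library overlapped B6 in Min mucosa, and the calls held in every fit. They belong to families of similar genes, so the split of reads between members is uncertain. The 1 fall was Cyp1b1 (-0.996 ± 0.31, adjusted p = 0.0278), lost without B6 replicate 3 or B6xPWD replicates 2 or 3, each left out alone (adjusted p = 0.0696 to 0.166) and in a fit of the 6 libraries alone (adjusted p = 0.071).

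Glutathione genes were higher in 5 of 23 cases and lower in 1, in both tissues (medians 0.50 and 0.75), the rises in Min mucosa being 3 to 5 with any 1 library left out, fewest without B6 replicate 3 or B6xPWD replicate 3, and 1 without B6xPWD replicates 2 and 3. Gclm, the modifier subunit of the enzyme that makes the glutathione precursor, was at 31.2, 32.2 and 29.4 CPM in B6 and 72.9, 98.4 and 107 CPM in B6xPWD (1.58 ± 0.21, adjusted p = 8.6e-06) and held in every fit. Gstk1, a glutathione transferase, went from 5.15, 9.04 and 6.12 to 22.2, 31.2 and 35.8 CPM (2.12 ± 0.42, adjusted p = 0.000909), and Gsta4 rose by 1.87 ± 0.42, adjusted p = 0.00285. Gpx2, the glutathione peroxidase of the gut epithelium, was at 238, 212 and 217 and 88.2, 114 and 102 CPM (-1.13 ± 0.37, adjusted p = 0.0322). Its groups did not overlap, but the call was lost without B6 replicates 1, 2 or 3 or B6xPWD replicates 1, 2 or 3, each left out alone (adjusted p = 0.0573 to 0.0976); in wild-type mucosa it fell too (-1.97 ± 0.38, adjusted p = 0.00097).

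Fatty acid oxidation and ketogenesis had 7 of 20 genes higher and none lower, 19 of 20 estimates above 0 and a median of 0.57 (wild type 0.46). The rises numbered 5 to 8 with any 1 library left out, fewest without B6 replicate 3 or B6xPWD replicates 2 or 3, and 3 without B6xPWD replicates 2 and 3. Acaa1b, a peroxisomal thiolase, was at 0.251, 0.274 and 0.175 CPM in B6 and 7.61, 17.3 and 17.3 CPM in B6xPWD (5.76 ± 0.72, adjusted p = 3.09e-06), with a wild-type change of 4.07. Ehhadh, the peroxisomal bifunctional enzyme, went from 57.7, 81.9 and 53.9 to 152, 153 and 187 CPM (1.35 ± 0.23, adjusted p = 0.000238), and Hadhb, a subunit of the mitochondrial trifunctional protein, rose by 1.33 ± 0.24, adjusted p = 0.00035. None of the 3 overlapped between groups, and these calls held in every fit.

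Cholesterol synthesis held more falls than rises. Of 22 genes 5 were lower and 1 higher, with 19 estimates below 0 and a median of -0.60. The falls numbered 1 to 5 with any 1 library left out, fewest without B6 replicate 1 or B6xPWD replicates 2 or 3, and 0 without B6xPWD replicates 2 and 3. In wild-type mucosa 1 was higher, none was lower and the median was 0.43. Lss, lanosterol synthase, was at 26.3, 24.9 and 26.6 CPM in B6 and 9.82, 11.4 and 8.19 CPM in B6xPWD (-1.39 ± 0.37, adjusted p = 0.0106), lost without B6xPWD replicate 3 (adjusted p = 0.0558). The difference from wild-type mucosa was not called for Lss (adjusted p of the interaction 0.296).

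Secretory lineages were mixed. Of 16 Paneth cell genes 3 were higher, Pla2g2a, Itln1 and Lyz1, and 1 lower (wild type 1 and 4), and without B6xPWD replicates 2 and 3 the median turned from 0.24 to -0.31. Itln1, a lectin, was at 489, 763 and 532 and 952, 1425 and 1567 CPM (1.14 ± 0.33, adjusted p = 0.0171), lost without B6 replicates 1 or 3 or B6xPWD replicates 2 or 3, each left out alone (adjusted p = 0.0556 to 0.0786). Lyz1, lysozyme, was at 1984, 3799.7 and 2545 CPM in B6 and 5169.7, 6129 and 7764 CPM in B6xPWD (1.19 ± 0.36, adjusted p = 0.0208). Its call was lost without B6 replicates 1 or 3 or B6xPWD replicate 3, each left out alone (adjusted p = 0.0652 to 0.103). Itln1 and Lyz1 were not called in wild-type mucosa (-0.12 and 0.24). The fall was Defa3, an alpha-defensin with many near-identical copies, at 37.1, 43.7 and 12.9 and 7.37, 16.2 and 14.3 CPM with overlapping groups. It was lost without B6 replicates 1 or 2 or B6xPWD replicates 1 or 3, each left out alone (adjusted p = 0.0536 to 0.13) and in a fit of the 6 libraries alone (adjusted p = 0.0618). Of 15 goblet cell genes 1 was higher and 2 lower. Retnlb, a secreted goblet cell protein that acts on bacteria, was at 5.15, 5.07 and 5.95 CPM in B6 and 50.5, 82.6 and 52.2 CPM in B6xPWD (3.52 ± 0.71, adjusted p = 0.00113). It rose in wild-type mucosa as well (6.81), and its Min call held in every fit. Ccl6, a chemokine of the goblet list, fell (-0.73 ± 0.19, adjusted p = 0.00924), a call lost without B6xPWD replicate 1 (adjusted p = 0.0533). Of 18 enteroendocrine genes 1 was higher, Chgb (0.98 ± 0.30, adjusted p = 0.0252, lost without B6 replicates 1 or 3 or B6xPWD replicates 1 or 2, each left out alone (adjusted p = 0.0736 to 0.0959)), and 1 lower, Pyy. Among 6 tuft cell genes 1 was lower, Ptgs1 (-1.12 ± 0.29, adjusted p = 0.00787), lost without B6xPWD replicate 3 (adjusted p = 0.052).

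Stem cell, Wnt and cell cycle lists were read against 8.74% of all genes called higher and 7.21% lower. Of 19 stem cell genes 2 were higher and 2 lower, with none lower without B6xPWD replicate 3 and none called without B6xPWD replicates 2 and 3. Olfm4, a marker of crypt stem cells, was at 141, 278 and 352 CPM in B6 and 518, 491 and 739 CPM in B6xPWD (1.18 ± 0.25, adjusted p = 0.00149). Lrig1, a negative regulator of growth factor signalling, was at 75.4, 74.9 and 71.4 and 52.1, 53.5 and 49.9 CPM (-0.51 ± 0.14, adjusted p = 0.0141). The Lrig1 call was lost without B6xPWD replicate 3 (adjusted p = 0.0627). Olfm4 and Lrig1 were not called in wild-type mucosa (0.42 and -0.18). Of 23 Wnt targets none was higher and 2 were lower (median -0.29, wild type -0.00), and none was lower without B6xPWD replicate 3. Ccnd1, cyclin D1, was at 128, 78.3 and 100.4 CPM in B6 and 46.3, 58.5 and 39.1 CPM in B6xPWD (-1.09 ± 0.28, adjusted p = 0.00852), and fell in wild-type mucosa (-1.71 ± 0.29, adjusted p = 0.000307); the Min call was lost without B6 replicate 1 or B6xPWD replicate 3, each left out alone (adjusted p = 0.0565 to 0.0575). Of 23 cell cycle genes none was higher and 2 were lower, and 1 was lower without B6 replicate 2 or B6xPWD replicates 1, 2 or 3, each left out alone. Pcna, the sliding clamp of DNA replication, was at 79.1, 51.9 and 38.8 and 21.4, 24.8 and 24.6 CPM (-1.27 ± 0.27, adjusted p = 0.00174). Of 17 genes of Apc and its destruction complex only Ppp2ca, a phosphatase catalytic subunit, was called (0.44 ± 0.14, adjusted p = 0.0303), and the call was lost without B6 replicates 1 or 2 or B6xPWD replicates 1, 2 or 3, each left out alone (adjusted p = 0.058 to 0.0964), with no filter on low counts (adjusted p = 0.07) and in a fit of the 6 libraries alone (adjusted p = 0.112).

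Antimicrobial and inflammatory genes were lower in B6xPWD in 8 of 25 cases and higher in 3, against 7.21% and 8.74% of all genes (median -1.97, wild type -1.84). The falls numbered 5 to 8 with any 1 library left out, fewest without B6 replicate 3 or B6xPWD replicates 2 or 3, and 1 without B6xPWD replicates 2 and 3. The summed level was 10693, 12512 and 19168 CPM in B6 and 4469.7, 5119 and 3422 CPM in B6xPWD. Beside Dmbt1, Lcn2, an iron-sequestering lipocalin, was at 3.39, 4.11 and 4.02 CPM in B6 and 0.368, 0.535 and 0 CPM in B6xPWD (-3.46 ± 0.82, adjusted p = 0.0043). Saa3, a serum amyloid, had 74 counts in B6 and 1 in B6xPWD, a ratio of 63.6 (11.1 to 2545). The rises were Reg3a, Reg4 and Il18. Reg3a, a bactericidal lectin, was at 8.3, 10.5 and 16.6 and 76.7, 54.6 and 70.9 CPM (2.52 ± 0.48, adjusted p = 0.000662) and held in every fit, though one B6 wild-type library reached 82.8 CPM and the wild-type contrast was not called. Reg4 rose in both tissues (1.71 ± 0.44 and 3.05), and Il18 (1.15 ± 0.40, adjusted p = 0.0468) was lost without B6 replicates 1 or 3 or B6xPWD replicates 2 or 3, each left out alone (adjusted p = 0.103 to 0.183) and with DESeq2 size factors (adjusted p = 0.0526).

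Innate sensors gave 3 higher and 4 lower of 28. The falls numbered 0 without B6 replicate 3, without B6xPWD replicate 3 and without B6xPWD replicates 2 and 3, and the rises 2 to 4 with any 1 library left out. Tlr6, a receptor for bacterial lipopeptides, was at 0.126, 0.548 and 0.35 CPM in B6 and 2.7, 2.67 and 3.28 CPM in B6xPWD (3.02 ± 0.57, adjusted p = 0.000581). It was called in wild-type mucosa (2.35), and its Min call held in every fit. The inflammasome genes Nlrp6 and Casp1 rose by 0.66 ± 0.18 and 0.57 ± 0.20. Nlrp6 was lost without B6 replicate 3 or B6xPWD replicate 2, each left out alone (adjusted p = 0.0547 to 0.0794) and in a fit of the 6 libraries alone (adjusted p = 0.063), and Casp1 without B6 replicates 1 or 2 or B6xPWD replicates 1 or 3, each left out alone (adjusted p = 0.095 to 0.252), with DESeq2 size factors (adjusted p = 0.0585), with no filter on low counts (adjusted p = 0.0649), without Rn45s (adjusted p = 0.0521) and in a fit of the 6 libraries alone (adjusted p = 0.138). Nod1, a sensor of bacterial cell wall fragments, fell (-1.27 ± 0.37, adjusted p = 0.0191), a call lost without B6 replicate 3 or B6xPWD replicates 1, 2 or 3, each left out alone (adjusted p = 0.0504 to 0.0919). Naip6 was at 14.2, 18.2 and 26.2 CPM in B6, 8.47, 7.85 and 0 CPM in B6xPWD and 0, 0 and 0 CPM in PWD, where no read was assigned; this family has near-identical copies.

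Lists of T cell, B and plasma cell and myeloid genes held 17 falls and 1 rise in B6xPWD, against 7.21% of all genes called lower and 8.74% higher. In bulk tissue fewer cells of a type and less RNA per cell cannot be told apart. Of 17 T cell genes 5 were lower and all 17 estimates were below 0 (median -1.54, wild type -1.54). The falls numbered 1 to 5 with any 1 library left out, fewest without B6 replicate 3 or B6xPWD replicates 2 or 3. The summed level was 123, 119.5 and 305 CPM in B6, with replicate 3 highest, and 54.9, 40.7 and 50.6 CPM in B6xPWD. Ccl5, a chemokine of T cells, was at 19.6, 25.2 and 35.3 CPM in B6 and 3.93, 1.43 and 2.57 CPM in B6xPWD (-3.27 ± 0.66, adjusted p = 0.00116), with a wild-type change of -3.72 that was also called. Itgae, the integrin of intraepithelial T cells, was at 8.42, 9.17 and 32.5 and 5.65, 3.92 and 4.68 CPM (-1.78 ± 0.53, adjusted p = 0.0207), and its call was lost without B6 replicate 3 or B6xPWD replicates 2 or 3, each left out alone (adjusted p = 0.0667 to 0.277).

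Of 12 B and plasma cell genes 3 were lower, all 12 estimates were below 0 and the median was -1.70 (wild type -3.02, with 7 lower). The falls in Min mucosa numbered 1 to 3 with any 1 library left out, fewest without B6xPWD replicates 2 or 3. Igj, the joining chain of secreted immunoglobulin A, was at 1065, 890.0 and 1305 CPM in B6 and 517, 218 and 221 CPM in B6xPWD (-1.77 ± 0.48, adjusted p = 0.0116), lost without B6xPWD replicates 2 or 3, each left out alone (adjusted p = 0.0706 to 0.0714). Derl3, an endoplasmic reticulum protein of plasma cells, went from 6.41, 5.48 and 9.45 to 1.84, 3.03 and 1.17 CPM (-1.78 ± 0.44, adjusted p = 0.00561). Both fell in wild-type mucosa (-2.29 and -2.84).

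Myeloid genes were lower in 9 of 17 cases and higher in 1 (median -1.17, wild type -1.61), the falls being 6 to 9 with any 1 library left out, fewest without B6xPWD replicate 3. C1qb and C1qa, complement subunits made by macrophages, fell (-1.69 ± 0.31, adjusted p = 0.000404, and -1.59 ± 0.35, adjusted p = 0.00262), and so did Itgam, an integrin of macrophages and granulocytes (-1.43 ± 0.29, adjusted p = 0.00115). C1qb was at 39.2, 48.6 and 42.3 CPM in B6 and 14.5, 14.3 and 11.2 CPM in B6xPWD. The 1 rise was Lyz2, lysozyme of macrophages, at 34.7, 56.1 and 51.4 and 171, 229.7 and 304 CPM (2.31 ± 0.42, adjusted p = 0.00047). Lyz2 is a close copy of the Paneth cell lysozyme Lyz1, which was at 1984 to 7764 CPM in these libraries, and reads shared by the pair cannot be assigned from the counts. Without B6xPWD replicates 2 and 3 no gene of the T cell, B cell or myeloid lists was called, but their medians were -1.38, -1.19 and -1.22.

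Among antigen presentation genes, falls outnumbered rises, but most members were not called. Of 18 class I genes 5 were lower and 2 higher, H2-Bl and H2-T3 (1.40 ± 0.28, adjusted p = 0.000933), the gene of the thymus leukaemia antigen. The falls in class I numbered 1 to 5 with any 1 library left out, fewest without B6 replicate 3 or B6xPWD replicates 1 or 2, and 0 without B6xPWD replicates 2 and 3, and the rises numbered 2 to 4 with any 1 library left out. Nlrc5, the transactivator of class I genes, was at 10.7, 8.76 and 33.6 CPM in B6 and 1.6, 2.67 and 2.11 CPM in B6xPWD (-3.05 ± 0.69, adjusted p = 0.00292), and fell in wild-type mucosa (-2.82). Psmb8 and Tap1, of the immunoproteasome and the peptide transporter, fell (-1.78 ± 0.52, adjusted p = 0.0177, and -1.81 ± 0.53, adjusted p = 0.0185). Psmb8 was lost without B6 replicate 3 or B6xPWD replicates 1 or 2, each left out alone (adjusted p = 0.0574 to 0.0772), and Tap1 without B6 replicate 3 or B6xPWD replicates 1 or 2, each left out alone (adjusted p = 0.0596 to 0.101). Of 10 class II genes 1 was lower (median -1.24): H2-Eb1 was at 319, 302 and 311 and 79.8, 36.6 and 88.9 CPM (-2.18 ± 0.58, adjusted p = 0.01), lost without B6xPWD replicate 2 (adjusted p = 0.0666). The histocompatibility genes differ in sequence between strains, and the part of alignment to the C57BL/6 reference was not tested.

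The interferon response was split: 6 of 33 genes were higher and 5 lower (median -0.04), while 8 were lower and none higher in wild-type mucosa (median -1.05). The summed level was 431, 375 and 829.9 CPM in B6, with replicate 3 highest, and 393, 496 and 547 CPM in B6xPWD. Without B6 replicate 3 the counts were 8 higher and 1 lower, the rises numbered 3 without B6 replicate 2 or B6xPWD replicates 2 or 3, each left out alone, and no gene of the list was called without B6xPWD replicates 2 and 3. Iigp1, an immunity-related GTPase, was at 28.04, 13.01 and 38.7 CPM in B6 and 5.28, 4.46 and 3.51 CPM in B6xPWD (-2.55 ± 0.61, adjusted p = 0.0044), and fell in wild-type mucosa too (-2.60). Gbp2, a guanylate-binding protein, and Zbp1, a nucleic acid sensor, fell (-1.64 ± 0.42, adjusted p = 0.00744, and -2.34 ± 0.62, adjusted p = 0.0103), each call lost without B6 replicate 3 (adjusted p = 0.0794 and 0.321). Ddx58, the RNA sensor RIG-I, rose from 13.8, 17.4 and 16.97 to 29.3, 29.96 and 39.6 CPM (1.03 ± 0.24, adjusted p = 0.00395), and Ifi27l2b by 1.72 ± 0.38, adjusted p = 0.00275.

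Stromal and vascular genes were lower or not called. Of 14 smooth muscle genes 4 were lower, and all 14 estimates were below 0 (median -1.20, wild type -0.37). The summed level was 2229.7, 3330.4 and 1795 CPM in B6 and 1831, 286 and 1095 CPM in B6xPWD, lowest in the second hybrid library, and the falls were 0 to 8 with any 1 library left out, fewest without B6xPWD replicate 2. Of 12 endothelial genes 5 were lower (median -0.91, wild type -0.93), and 1 to 4 with any 1 library left out, fewest without B6xPWD replicate 3. Vwf, von Willebrand factor, was at 23.3, 19.99 and 20.1 CPM in B6 and 10.2, 9.09 and 7.72 CPM in B6xPWD (-1.22 ± 0.30, adjusted p = 0.00598). Without B6xPWD replicates 2 and 3 no smooth muscle or endothelial gene was called. Fibroblasts had 1 fall in 13 genes, Col6a1 (-0.85 ± 0.29, adjusted p = 0.0443), and enteric nerves and glia 1 in 11, Prph (-1.24 ± 0.44, adjusted p = 0.0493). Col6a1 was lost without B6 replicates 1, 2 or 3 or B6xPWD replicates 1, 2 or 3, each left out alone (adjusted p = 0.0608 to 0.189) and with no filter on low counts (adjusted p = 0.0532). Prph was lost without B6 replicates 1 or 2 or B6xPWD replicates 1, 2 or 3, each left out alone (adjusted p = 0.0552 to 0.214), with no filter on low counts (adjusted p = 0.0672), with a replicate block (adjusted p = 0.0531) and in a fit of the 6 libraries alone (adjusted p = 0.0674).

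Both erythroid genes tested were lower in B6xPWD. Slc4a1, the anion exchanger of red cells (chromosome 11, 102348820 to 102365281), was at 9.43, 2.46 and 2.45 CPM in B6 and had 0 counts in B6xPWD, at least 30.6-fold lower. Alas2, the erythroid enzyme of haem synthesis, was at 14.7, 6.3 and 7.7 and 0.86, 0.892 and 0 CPM (-3.86 ± 0.64, adjusted p = 0.00014). Both held in every fit. In wild-type mucosa Alas2 was at 0.604, 1.44 and 0 and 0.66, 1.35 and 0 CPM, and the difference between tissues was not called (adjusted p = 0.4). The 6 globin genes of the list are at 0 counts in B6 and B6xPWD Min mucosa, so they give no measure of blood.

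Iron handling had 3 genes higher and 6 lower of 16 (median -0.65), the rises being 2 to 3 with any 1 library left out, fewest without B6 replicate 1 or B6xPWD replicate 3 and the falls 4 to 6 with any 1 library left out, fewest without B6 replicate 1 or B6xPWD replicates 2 or 3. Without B6xPWD replicates 2 and 3 no gene of the list was called. Tfrc, the transferrin receptor, was at 264, 299.9 and 225 CPM in B6 and 127, 94.7 and 103 CPM in B6xPWD (-1.28 ± 0.24, adjusted p = 0.000523), and Slc11a2, the importer of ferrous iron, went from 54.1, 47.6 and 33.4 to 26.5, 23 and 25.5 CPM (-0.85 ± 0.21, adjusted p = 0.00649). Both fell in wild-type mucosa as well (-0.76 and -0.78). Ankrd37, a target of hypoxia-inducible factors, fell (-2.25 ± 0.44, adjusted p = 0.000769) and was not called in wild-type mucosa (-0.54). Aco1 and Ireb2, the iron regulatory proteins, rose by 0.90 ± 0.19, adjusted p = 0.00177 and 0.81 ± 0.20, adjusted p = 0.00678, Ireb2 being lost without B6 replicate 1 (adjusted p = 0.0518). No library of one group reached the other in any of these 5 genes.

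Among circadian genes 3 of 18 were lower and 1 higher (median -0.17). The falls numbered 1 to 3 with any 1 library left out, fewest without B6 replicate 1 or B6xPWD replicates 1 or 3. In wild-type mucosa 1 was higher, none was lower and the median was 0.61. Without B6xPWD replicates 2 and 3 the median in Min mucosa was -0.54. Per1 and Per2, repressors of the clock, were lower (-1.65 ± 0.49, adjusted p = 0.0209, and -1.69 ± 0.53, adjusted p = 0.0282). Per1 was at 15.6, 14.1 and 15.04 CPM in B6 and 2.58, 7.85 and 3.98 CPM in B6xPWD. The Per1 call was lost without B6 replicate 1 or B6xPWD replicates 1 or 3, each left out alone (adjusted p = 0.0517 to 0.108), and so was the Per2 call without B6 replicate 1 or B6xPWD replicates 1 or 3, each left out alone (adjusted p = 0.0522 to 0.147). Times of collection are not given in the sources used here. Of 24 imprinted genes 5 were lower and none higher (median -0.46, wild type -0.30), the falls being 2 to 6 with any 1 library left out, fewest without B6xPWD replicate 3, and 0 without B6xPWD replicates 2 and 3. H19, a maternally expressed RNA, was at 2.51, 0.958 and 3.32 CPM in B6 and had 0 counts in B6xPWD, at least 13.2-fold lower. Plagl1, an imprinted zinc finger gene, was at 4.9, 5.89 and 1.92 and 1.35, 0.892 and 0.936 CPM (-1.96 ± 0.49, adjusted p = 0.00636).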

How the data were processed

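Raw counts per gene symbol were deposited by the authors in a table of all libraries. Per the labels' protocols, total RNA was depleted of ribosomal RNA with RiboMinus and read from one end on the Genome Analyzer IIx of Illumina, and per the submitters' processing notes the tools were BWA and HTSeq and the genome mm10. Their versions, the gene annotation and the strand setting are not given in the sources used here, so overlapping and antisense genes could not be told apart. The 5 HTSeq summary categories (47.0 to 53.1% of the reads of the 6 libraries) were left out. Positions and promoters are from RefSeq GRCm38.p6, the same assembly: 22550 of 24062 symbols matched directly, 1352 by a unique synonym, and 160 did not.

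One model with a mean per group was fitted to all 39 tissue libraries in 13 groups (26 residual degrees of freedom) in edgeR 4.0.16 and R 4.3.3, because shared groups give a steadier estimate of the spread. It used filterByExpr (minimum count 10, minimum total 15), TMM and the quasi-likelihood F-test, with Benjamini-Hochberg adjusted p under 0.05 as a call. The SE is the log2 change divided by the root of F. The code was tested on simulated counts first. A gene at 0 counts in a group gets a bound against 3 counts, and one with 1 to 3 counts a ratio with an exact 95% interval.

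Over the 12 pairs within the B6 and B6xPWD mucosa groups chi-square per degree of freedom was at least 12.5, so no library was a copy of another. Genes described are the 10 largest rises and 10 largest falls that were called, reached 5 CPM on average on the higher side and showed no overlap, up to 3 called genes per list and direction, Apc and Pla2g2a, and the 10 genes most firmly called in both tissues; Gata4, Hoxb9 and Fabp6 were added after their values were seen. Groups, lists and members were chosen with earlier results of these data known. Alternatives were DESeq2 1.42.0, its size factors, no filter on low counts, a replicate block, the compared groups alone, Rn45s left out, each library left out and, added after seeing the data, B6xPWD replicates 2 and 3 left out.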

Additional observations from a re-analysis of the deposited data

How the results depend on the processing

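The 2178 genes called in Min mucosa became 1185 to 1959 with any 1 library left out (fewest without B6xPWD replicate 3, then 1297 without replicate 2), and 249 without both. The 1311 calls in wild-type mucosa became 351 in a fit of the 6 compared libraries alone and 597 to 1564 with any 1 library left out, with 704 without B6 replicate 1, 597 without B6 replicate 2 and 701 without B6xPWD replicate 2. The test of the difference between tissues called 0 genes, 19 with DESeq2, and 0 to 3 with any 1 library left out (3 without B6 wild-type replicate 1). The cause of these shifts was not tested, beyond the fewer libraries in each such fit. A replicate block gave 2203 calls in Min mucosa. Same-numbered libraries correlated at -0.17, -0.12 and -0.16 in their deviations from the group means, and at -0.25, -0.10 and -0.12 in wild-type mucosa. Deviations within a group of 3 depend on one another, so these values cannot decide whether the numbers pair libraries. Of 138 called genes described, 73 stayed called whichever single library was left out and 28 under all alternatives. The change of Mcpt1 ranged from -5.65 to 0.37 with any 1 library left out, reversing without B6 replicate 3, and that of Pck1 (-0.44) and Apc (0.087) reversed without B6xPWD replicates 2 and 3; no reversed value was called. Of 533 list medians under the alternatives, 480 moved by less than the spread between replicates and 53 by more. At 2864787 to 4586698 gene counts without Rn45s per library, genes under about 1 CPM rest on few reads.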

Other observations

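Small nucleolar and Cajal body RNA genes, which guide the modification of ribosomal and spliceosomal RNA, were looked at after their values were seen. Of 91 tested, 23 were called higher in B6xPWD Min mucosa and none lower, against 8.74% and 7.21% of all genes. The median was 2.29 (wild type 1.91). Calls of this set under the alternative settings are not given here. Their summed level was 1043, 3029 and 5475 CPM in B6 Min mucosa and 13533, 12756 and 11505 CPM in B6xPWD Min mucosa. In wild-type mucosa it was 1981, 1435 and 8856 CPM against 16238, 12026 and 9215 CPM. No hybrid library overlapped B6 in either tissue, although the third B6 wild-type library came close. Snora3 was at 0.503, 2.46 and 14.7 CPM in B6 Min mucosa and 247, 322 and 213 CPM in B6xPWD Min mucosa (5.54 ± 1.30, edgeR adjusted p = 0.00395). Its wild-type estimate was 3.01 and was not called (edgeR adjusted p = 0.125). Recovery of such short RNAs depends on RNA purification and on fragment size, and whether these differed between groups was not tested.

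A group of genes of glucose use was also picked out after its values were seen, beside Hif3a and Ankrd37. Slc16a3, a lactate exporter, was at 131, 96.5 and 104 CPM in B6 Min mucosa and 10.3, 11.9 and 13.8 CPM in B6xPWD Min mucosa (-3.21 ± 0.50, edgeR adjusted p = 6.79e-05). Pfkl, a phosphofructokinase subunit, was at 138, 107 and 68.4 CPM against 31.8, 36.2 and 37.4 CPM (-1.57 ± 0.29, adjusted p = 0.000489). Aldoc, an aldolase, changed by -2.20 ± 0.42 and Pdk1, a kinase that restrains pyruvate dehydrogenase, by -0.86 ± 0.21 (adjusted p = 0.000633 and 0.00532). None of the 4 was called in wild-type mucosa (adjusted p = 0.187, 0.296, 0.522 and 0.27), where the estimates were -1.05, 0.51, 0.58 and 0.39.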
